A study of Mus musculus with 192 samples.

Results

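The 7 genes described here encode 2 colony-stimulating factors, Csf1 and Csf3, and the receptor chains through which this family of cytokines acts, Csf1r, Csf2ra, Csf2rb, Csf2rb2 and Csf3r. They were listed by name and are 7 of the 23481 genes in the deposited table of unique molecular identifier (UMI) counts, in which each count stands for 1 tagged cDNA molecule. The table holds RNA-seq libraries from mouse bone marrow-derived dendritic cells, 3 for each of 64 groups. Marrow of female C57BL/6J mice aged 6 to 8 weeks had been cultured with GM-CSF at 15 ng/mL, and 100000 cells per well were stimulated for 6 h. Every group, the unstimulated control (Ctrl) included, therefore came from cells grown in a colony-stimulating factor whose receptor is encoded by Csf2ra and Csf2rb. The other 63 groups received 1 of 7 ligands of pattern recognition receptors, or a pair or triplet of them: 7 single ligands, 21 pairs and 35 triplets. Under the submitters' short names, which are kept here, these ligands were PAM, HMW, SeV, CpGB, cGAMP (3',3'-cGAMP), Zymosan (a depleted zymosan preparation) and LPS, or lipopolysaccharide. Nothing in the labels says that the 3 libraries of a group came from separate animals or cultures, so p-values measure the spread between these libraries, which may be technical.

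Colony-stimulating factors drive the growth, survival and maturation of myeloid cells. Csf1 (M-CSF) acts through Csf1r, a receptor tyrosine kinase on monocytes, macrophages and many dendritic cells. Csf3 (G-CSF) acts through Csf3r, a single-chain receptor best known on neutrophils and their precursors. GM-CSF binds an alpha chain, Csf2ra, which joins the shared beta chain, Csf2rb, to signal through the kinase Jak2 and the factor Stat5. In mice a closely related second beta gene, Csf2rb2, encodes a chain used mainly by the interleukin 3 receptor. Microbial stimuli are known to raise Csf1 and Csf3 in macrophages and to lower the amount of Csf1r.

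Promoter sequences, from 250 bases before to 50 bases after the annotated start, were at hand for 4 of the 7 genes in RefSeq (GRCm38.p6). The promoters of Csf1 and Csf3r are shown because they belong to the members with the largest average rise and one of the largest average falls below, and because both hold a match to the NF-kB consensus, the site of the factor through which most of these ligands are known to act. The sequences run 5' to 3' along each gene, with capitals for motif matches.
Csf1, chr3:107760420-107760719, minus strand: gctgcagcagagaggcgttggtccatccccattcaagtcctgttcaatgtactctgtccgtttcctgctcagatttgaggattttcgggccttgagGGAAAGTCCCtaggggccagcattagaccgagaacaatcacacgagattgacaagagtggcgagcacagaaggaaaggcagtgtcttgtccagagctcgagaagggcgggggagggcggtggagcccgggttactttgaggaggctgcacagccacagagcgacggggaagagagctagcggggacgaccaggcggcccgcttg
Csf3r, chr4:126024409-126024708, plus strand: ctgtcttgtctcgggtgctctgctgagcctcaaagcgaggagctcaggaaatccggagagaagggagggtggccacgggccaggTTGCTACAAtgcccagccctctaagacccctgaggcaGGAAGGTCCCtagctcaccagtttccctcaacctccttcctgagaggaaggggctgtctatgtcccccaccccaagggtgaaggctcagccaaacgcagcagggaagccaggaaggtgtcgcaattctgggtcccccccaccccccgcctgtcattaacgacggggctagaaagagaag
Positions are counted from the start that this table uses, which for Csf1 is the gene start of the annotation below and for Csf3r lies 109 bases downstream of it. From there the NF-kB match began at -154 in Csf1 and at -129 in Csf3r. The Csf3r window also held a C/EBP palindrome, TTGCNNCAA, at -166. Both strands were searched, and none of the matches overlapped another. The other 2 promoters at hand, of Csf2ra and Csf2rb2, held no NF-kB match, and that of Csf2rb2 held a GAS and a PU.1 match. The 2 windows shown held no match to the ISRE, GAS (TTCNNNGAA), PU.1 Ets core (GAGGAAGT) or AP-1 (TGANTCA) motif. Of 32851 mouse promoters of the same length, 8.46% held the NF-kB consensus and 2.08% the C/EBP palindrome. A match is a string of letters in this window and does not show binding.

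In the mm10 annotation all 7 genes are protein-coding. Csf1 lies on the minus strand at chr3:107741048-107760469, Csf3 on the plus strand at chr11:98701263-98703629 and Csf1r on the plus strand at chr18:61100598-61132149. Csf2ra lies on the minus strand at chr19:61223957-61228429 and Csf3r on the plus strand at chr4:126024550-126044440. Csf2rb, at chr15:78325752-78353847 on the plus strand, and Csf2rb2, at chr15:78282507-78305721 on the minus strand, are neighbours whose gene bodies are 20030 bases apart. Exons of Csf1r overlap exons of Hmgxb3 on the opposite strand, and the sources used here do not say whether counting used strand, so reads from the shared exon stretches could have been counted for either gene; the length of these stretches was not measured. Windows of 50 bases shared between the longest transcripts of Csf2rb and Csf2rb2 made up 18.4% of Csf2rb and 19.0% of Csf2rb2, but 0% of the last 500 bases of either.

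Total counts ran from 46564 to 610234 UMIs per library with a median of 171616.5, and the Ctrl libraries were the shallowest group, at 73431 ± 14389 UMIs (SD, n = 3). In all, 4720 genes with 95.7% of the UMIs had enough counts to be tested, among them 6 of the 7 members; Csf3 did not. Levels are given in CPM, the usual depth-scaled unit of counts, after TMM scaling, and they are not compared between genes. Markers of dendritic cells (8 of 8) and of macrophages (8 of 8) had counts. The summed dendritic cell markers were lowest in Ctrl, at 5082 CPM, and reached 7377 CPM in PAM+HMW+SeV. Most of that sum is H2-Aa, H2-Ab1 and Cd74 (2126, 1525 and 774 CPM in Ctrl), genes of MHC class II presentation. In Ctrl 6 of the 8 genes were below their median over groups, but Itgax (421 CPM against a median of 294 CPM) and Flt3 (4.62 against 2.33 CPM) were above it. The summed macrophage markers were highest in Ctrl, at 11091 CPM, and lowest in PAM+LPS+Zymosan, at 6525 CPM. Most of that sum is Lyz2 (9450 CPM in Ctrl). Of the 8 genes, 5 were above their median over groups in Ctrl and 3 (Emr1, Fcgr1 and Mertk) were not, and without Lyz2 the sum was 1641 CPM in Ctrl and 1102 to 1863 CPM over groups. The 4 monocyte markers summed to between 2072 and 2816 CPM, mostly Chi3l3 (2090 CPM in Ctrl). Under that sum Ccr2 was highest in Ctrl, at 172 CPM against a median of 25.2 CPM over groups, and Ly6c2 lowest in Ctrl, at 30.7 CPM against 135 CPM. Mast cell, B cell, T cell and fibroblast markers stayed at or under 18.7 CPM in every group mean, and the erythroid markers were at 0. In these bulk libraries, fewer cells of a type and less RNA per cell cannot be told apart. In a check made after the data were seen, 6 libraries differed from both others of their group well beyond the other replicate sets: replicate 1 of HMW+SeV+CpGB, HMW+cGAMP+CpGB, HMW+SeV+cGAMP, Zymosan+SeV+cGAMP and PAM+HMW+Zymosan, and replicate 3 of PAM+HMW+SeV. By the same chi-square statistic (a median of 1.38 between replicates), each was nearer to another group than to its own. Replicate 1 of HMW+SeV+cGAMP had 1.24 against Zymosan+SeV+cGAMP and 3.11 against its own group, and replicate 1 of Zymosan+SeV+cGAMP had 1.32 against HMW+SeV+cGAMP and 3.14 against its own. Replicate 1 of HMW+SeV+CpGB, with 3.91 against its own group, was nearest to HMW+cGAMP+CpGB, and replicate 1 of HMW+cGAMP+CpGB, with 4.31, to SeV+CpGB (1.48). The other 2, of PAM+HMW+Zymosan and PAM+HMW+SeV, were nearest to PAM+Zymosan+SeV (2.12) and PAM+LPS (2.84). Whether labels were exchanged was not tested. Their labels were kept, and results whose call changes without them are given both ways.

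Csf1 rose on average when LPS or cGAMP was added, and less so with SeV. Ctrl libraries held 55.4, 37.4 and 28.8 CPM of Csf1, from 4, 3 and 3 UMIs. With SeV alone the libraries held 76.5, 107 and 75.0 CPM, all above Ctrl. With LPS alone they held 44.7, 77.6 and 107 CPM, which overlapped Ctrl. The mean levels of the single ligands ran from 86.3 CPM with SeV through LPS (76.5 CPM), cGAMP (67.2 CPM), CpGB (38.9 CPM), Zymosan (34.8 CPM) and HMW (32.4 CPM) to 23.3 CPM with PAM, and every pair of neighbours in this order overlapped. A condition was called different from Ctrl at an adjusted p under 0.05 (edgeR's quasi-likelihood test, Benjamini-Hochberg over all tested genes) and a change of at least 1 on the log2 scale. By that rule 0 of 7 single ligands were called for Csf1, also with DESeq2, and 2 had an unadjusted p under 0.05. The log2 fold change was 1.11 for SeV (adjusted p = 0.106) and 1.04 for LPS (adjusted p = 0.0947). Without LPS replicate 1 the LPS change was 1.34 with an adjusted p of 0.0303, so that library decides the call.

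**Figure D1:**
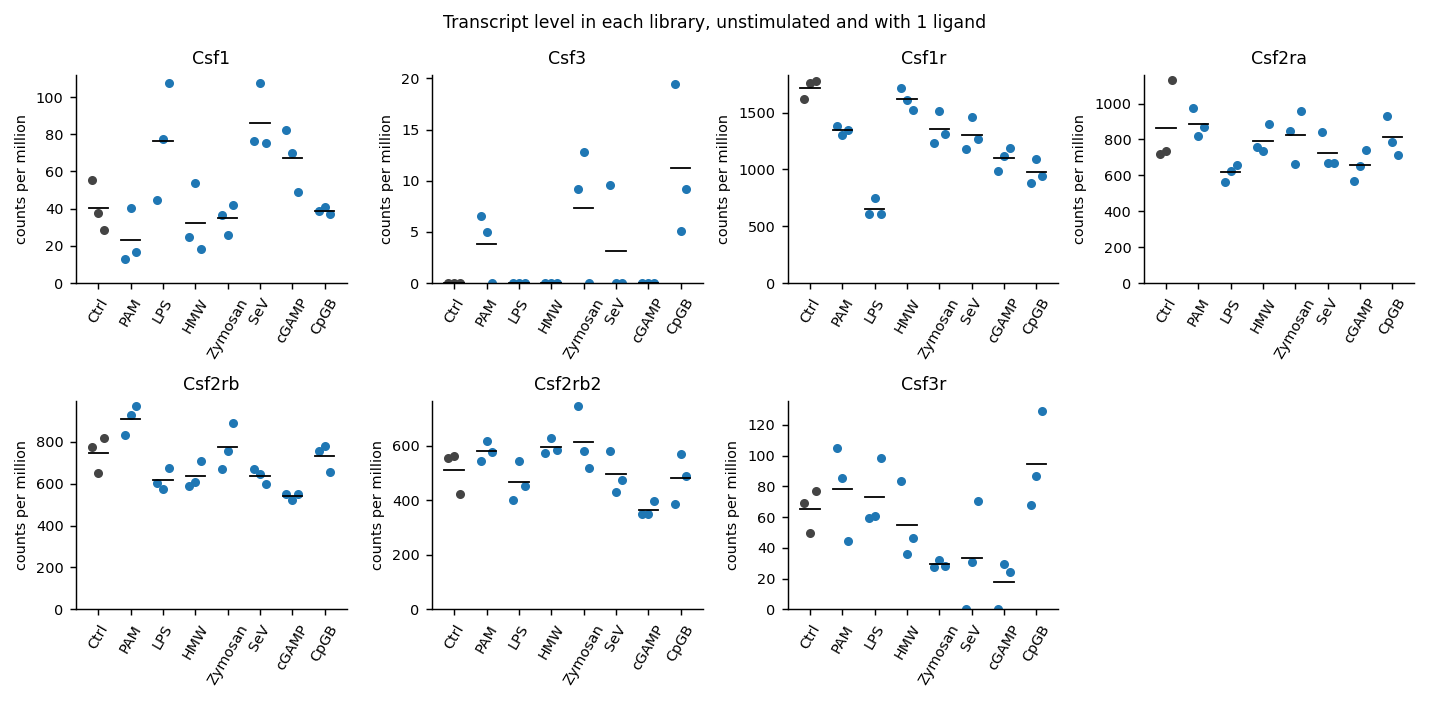
CPM of the 7 genes in each library of Ctrl (dark points) and of the 7 single ligands (blue points), with a bar at the mean of 3 libraries and a linear axis from 0 in each panel. Csf1r with LPS lies at 604 to 748 CPM against 1621 to 1776 CPM in Ctrl, while Csf1 in most conditions overlaps its Ctrl libraries.

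The calls for Csf1 came from combinations. Of the 63 conditions, 19 were called higher than Ctrl (5 pairs and 14 triplets) and 0 lower. Over all tested genes and the 63 conditions, 14.3% of comparisons were called higher and 9.03% lower, and 18.2% of tested genes were called higher in at least as many conditions as Csf1. LPS was present in 16 of the 19. The other 3, cGAMP+CpGB, PAM+HMW+cGAMP and PAM+cGAMP+CpGB, held cGAMP. The mean level ran from 61.9 to 157 CPM in the 22 conditions with LPS (median 105 CPM) and from 22.7 to 92.0 CPM in the 41 without it (median 61.2 CPM), so the ranges overlapped. LPS+cGAMP+CpGB had the highest mean, with 167, 122 and 184 CPM in its libraries. All 3 were above every Ctrl library, with a log2 fold change of 2.00 (edgeR adjusted p = 9.83e-05). LPS+HMW+SeV followed with 178, 109 and 135 CPM (log2 fold change 1.82, edgeR adjusted p = 0.0004). The number of conditions called varied with the setting: it was 8 with scaling by library size alone, 11 with DESeq2, 9 without replicate 2, 7 without replicate 3 and 8 without Ctrl replicate 3 alone, against 19 without replicate 1 and 21 without the 6 libraries that stood apart.

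The design holds each ligand on 22 matched backgrounds, that is, the same set of 0, 1 or 2 other ligands with and without it, and the average over these is far better counted than a single group. Such an average was called at an adjusted p under 0.05 and a mean log2 change of at least 0.5. Over the 7 ligands, 8.39% of tested genes were called higher and 5.53% lower. At the adjusted p alone, without the size threshold, the shares were 21.1% and 19.2%. Of the 42 averages of the 6 tested members, 2 were called higher, both for Csf1, and 5 lower. Adding LPS raised Csf1 by 1.08 on the log2 scale (SE 0.08, 95% interval 0.92 to 1.24, edgeR adjusted p = 1.48e-28), with a higher mean in 21 of 22 backgrounds. Adding cGAMP raised it by 0.57 (SE 0.09, adjusted p = 1.38e-09), in 18 of 22, but by 0.43, under the size threshold, with scaling by library size alone. SeV added 0.43 (adjusted p = 9.01e-06, 15 of 22), which passed the test but not the size threshold, though it was called without replicate 2 (0.54) and was 0.30 without replicate 3. The averages for PAM, HMW, Zymosan and CpGB were -0.03, -0.05, 0.03 and 0.20, and none of these 4 passed the test (adjusted p = 0.065 for CpGB). Without the 6 libraries that stood apart, the averages for LPS and cGAMP were 1.09 and 0.59, and that for CpGB was 0.24 with an adjusted p of 0.0226.

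**Figure D2:**
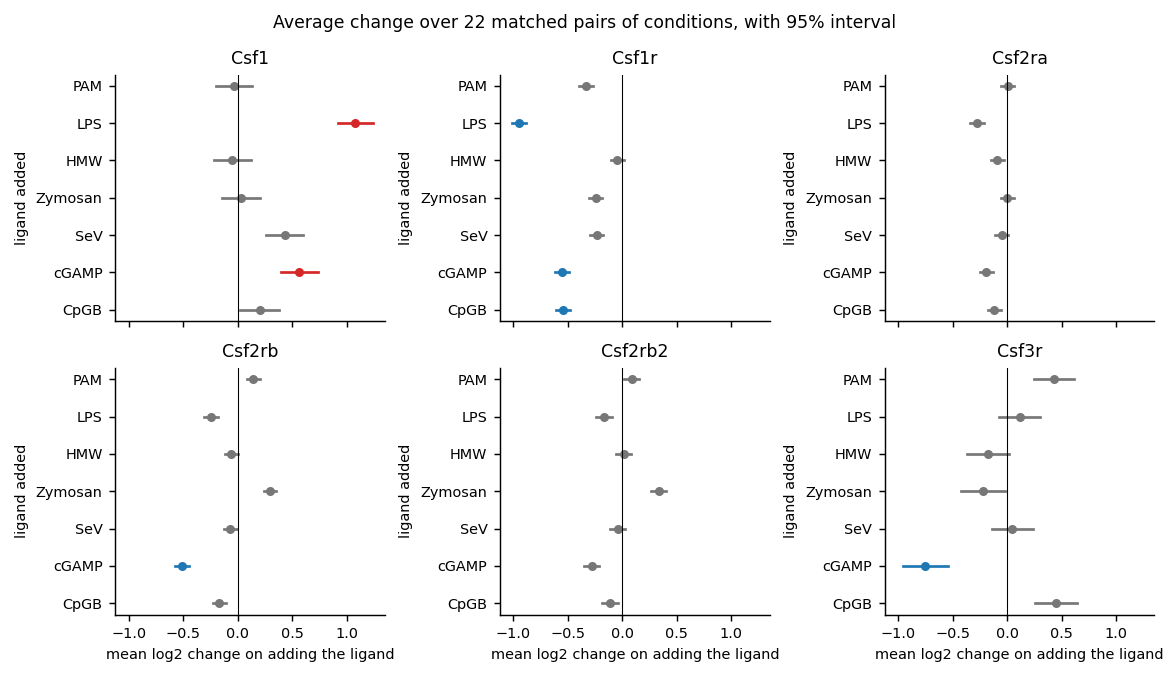
Mean log2 change on adding each ligand, over 22 matched pairs of conditions, with 95% intervals, for the 6 tested genes. Red marks averages called higher, blue those called lower and grey those not called; Csf1 lies at 1.08 with LPS, Csf1r at -0.95 with LPS, and Csf3r at -0.75 with cGAMP.

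Csf3 was almost absent from these libraries and was highest where PAM and Zymosan were combined. In all, 187 Csf3 UMIs were counted, in 79 libraries and 42 of 64 groups. Ctrl had 0 among 220294 UMIs, which allows up to 13.6 CPM before TMM scaling, and LPS, HMW and cGAMP alone also had 0. The means with CpGB, Zymosan, PAM and SeV alone were 11.2, 7.33, 3.86 and 3.19 CPM, each from a handful of UMIs. PAM+Zymosan libraries held 94.7, 14.7 and 30.0 CPM, from 9, 2 and 6 UMIs. PAM+Zymosan+CpGB libraries held 38.4, 53.4 and 39.4 CPM, and PAM+HMW+Zymosan libraries 22.1, 31.1 and 32.9 CPM. These 3 groups were the highest of all, and 1 of their 9 libraries, with 2 UMIs, was near the level that the 0 in Ctrl allows.

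Csf3 had too few counts for the model, so conditions with and without a ligand were compared by a permutation test over the 63 stimulated groups, two-sided, within groups of the same number of ligands, with 100000 resamples and adjustment over the 7 ligands. Groups with PAM averaged 11.8 CPM and those without it 2.70 CPM (permutation p = 5.0e-05, adjusted p = 0.00035). Groups with Zymosan averaged 10.6 CPM and those without it 3.36 CPM (permutation p = 0.00185, adjusted p = 0.00647). With LPS the mean was 2.58 CPM against 7.64 CPM without it, which did not pass (adjusted p = 0.059 by the permutation test). It did pass with raw library sizes (adjusted p = 0.0422) and without replicate 1 (adjusted p = 0.0146). With cGAMP the adjusted p was 0.0719, and 0.0342 without replicate 2. Without the 6 libraries that stood apart the adjusted p was 0.00035 for PAM, 0.00721 for Zymosan and 0.0535 for LPS. Without LPS, the libraries that held both PAM and Zymosan had 78 Csf3 UMIs in 14 of 15 libraries, with a mean of 30.8 CPM. With PAM and not Zymosan there were 44 UMIs in 21 of 33, with Zymosan and not PAM 24 in 15 of 33, and with neither 17 in 11 of 45. With LPS, PAM and Zymosan together there were 6 UMIs in 3 of 3 libraries, at a mean of 15.7 CPM.

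**Figure D3:**
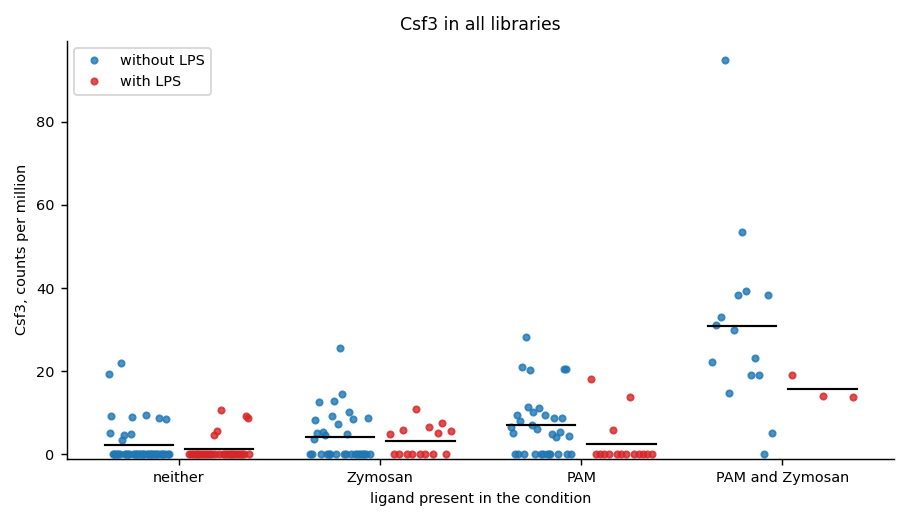
Csf3 CPM in every library, by whether its condition held PAM, Zymosan, both or neither, with (red) and without (blue) LPS; bars are means over libraries, Ctrl is among those with neither, and points are spread sideways to be seen. Most libraries lie at 0, and the mean is 30.8 CPM where PAM and Zymosan were combined without LPS.

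Csf1r, the receptor for Csf1, fell in most conditions. The Ctrl libraries held 1621, 1759 and 1776 CPM and those with LPS alone 610, 748 and 604 CPM, with no overlap. With CpGB they held 883, 1093 and 945 CPM and with cGAMP 990, 1116 and 1191 CPM, also below every Ctrl library. The order of the means ran from Ctrl (1718 CPM) through HMW (1616 CPM), Zymosan (1355 CPM), PAM (1343 CPM), SeV (1302 CPM), cGAMP (1099 CPM) and CpGB (974 CPM) to LPS (654 CPM). Libraries of neighbours in this order overlapped, except between HMW and Zymosan and between CpGB and LPS. LPS was the only single ligand called for Csf1r, with a log2 fold change of -1.39 (SE 0.15, edgeR adjusted p = 6.22e-16), where 9.6% of tested genes were called lower. CpGB and cGAMP passed the test with smaller changes of -0.81 (adjusted p = 1.14e-06) and -0.64 (adjusted p = 0.000194), but cGAMP did not with no filter on low counts (-0.43, adjusted p = 0.063), and CpGB was called with library size alone and with thinning to equal totals. SeV, at -0.40, had an adjusted p of 0.0312, but of 0.758 with no filter (-0.18), of 0.113 without the 6 libraries that stood apart, and of 0.0755 to 0.298 when any 1 library of Ctrl or SeV except SeV replicate 2 was left out. PAM (-0.36, adjusted p = 0.0585), Zymosan (-0.34, adjusted p = 0.12) and HMW (-0.10) did not pass. PAM and Zymosan did pass with RLE size factors (adjusted p = 0.004 and 0.0144), with library size alone, with DESeq2 and when each was fitted with Ctrl alone. Over the 7 single ligands 10.3% of comparisons of all genes passed the adjusted p in the higher and 6.84% in the lower direction.

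Of the 63 conditions, 39 were called lower for Csf1r (1 single ligand, 10 pairs and 28 triplets) and 0 higher, and 59 passed the adjusted p in the lower direction. Against the 9.03% of all comparisons called lower, 5.64% of tested genes were called lower in at least as many conditions. Of 189 stimulated libraries, 188 were below the lowest Ctrl library, and in 62 of 63 conditions all 3 libraries were. The exception was HMW alone. All conditions were set against the same 3 Ctrl libraries, and the share of all tested genes with so little overlap was not computed. All 22 conditions with LPS were called, 16 of 22 with cGAMP and 16 of 22 with CpGB, 15 of 22 with Zymosan, 14 of 22 with PAM, and 11 of 22 with HMW or with SeV. The median over single ligands was 1302 CPM, over pairs 864 CPM and over triplets 614 CPM. Grouped, after the values were seen, by how many of LPS, cGAMP and CpGB a condition held, 2 of 14 conditions with none, 21 of 33 with 1, 15 of 15 with 2 and the 1 with all 3 were called, with medians of 1211, 760, 557 and 417 CPM. These ligands gave the largest average falls of Csf1r, so this order follows in part from their choice. Of all tested genes, 0.0212% (HMW) to 12.4% (PAM+HMW+SeV) were called lower in conditions with none of the 3. The share was 9.62% (LPS+Zymosan+CpGB) to 12.8% (PAM+LPS+cGAMP) with 2 of them and 11.5% with all 3. The condition lowest in Csf1r was LPS+cGAMP+CpGB, with 324, 452 and 474 CPM (log2 fold change -2.03, edgeR adjusted p = 2.72e-24), which was also the condition highest in Csf1.

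Averaged over the 22 backgrounds, 3 ligands were called for Csf1r. Adding LPS lowered it by a mean log2 change of -0.95 (SE 0.03, edgeR adjusted p = 8.54e-74), cGAMP by -0.55 and CpGB by -0.54, each with a lower mean in 22 of 22 backgrounds. Adding LPS, 14.9% of tested genes were called higher and 11% lower. The shares were 14.3% and 10.3% for cGAMP, and 6.12% and 5.06% for CpGB. PAM (-0.34, 16 of 22 lower), Zymosan (-0.25, 20 of 22) and SeV (-0.24, 19 of 22) passed the test but not the size threshold, and HMW did not pass (-0.05, adjusted p = 0.45). Without the 6 libraries that stood apart the called averages were -0.93, -0.55 and -0.52. The summed macrophage markers, mostly Lyz2, moved with Csf1r at both ends of its order: they were highest in Ctrl (11091 CPM) and HMW (10123 CPM) and lowest with LPS (7761 CPM). Between these they ran from PAM (9597 CPM) through CpGB (9390 CPM), SeV (9209 CPM) and cGAMP (8781 CPM) to Zymosan (8507 CPM), which differs from the order of Csf1r there. Without Lyz2 this match at the ends was lost: the sum was 1641 CPM in Ctrl, 1428 CPM with HMW and 1575 CPM with LPS. Among the single ligands it then ran from 1102 CPM with Zymosan to 1745 CPM with PAM. The part of these markers in the Csf1r result was not tested.

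Over the 64 group means, Csf1 and Csf1r had a Pearson correlation of -0.72. This is a description of groups that share libraries, scaling and ligands. In the plot of both group means, the conditions with the highest Csf1 lay at the low end of Csf1r, and those with the lowest Csf1 spread over a wide range of the receptor.

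**Figure D4:**
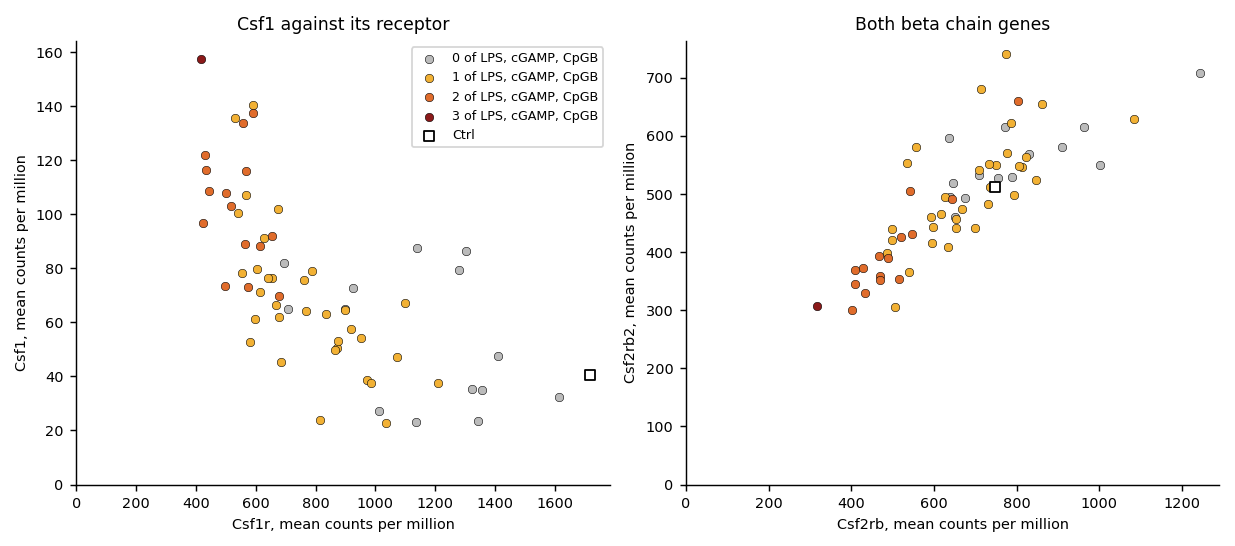
Mean CPM in each of the 64 groups, for Csf1 against Csf1r (left) and Csf2rb2 against Csf2rb (right), on linear axes from 0, coloured by how many of LPS, cGAMP and CpGB the condition held, with Ctrl as an open square. LPS+cGAMP+CpGB sits at 157 CPM of Csf1 and 417 CPM of Csf1r and, on the right, at the lowest Csf2rb, 316 CPM.

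The GM-CSF binding chain Csf2ra changed on average with 4 ligands, always by less than the size threshold, and its comparisons with Ctrl rested on 1 library. It was at 720, 736 and 1133 CPM in Ctrl, where replicate 3 was well above the other 2. With PAM, the highest single ligand, the mean was 888 CPM, and with LPS, the lowest, the libraries held 566, 626 and 658 CPM, all below Ctrl. Neighbours in the order of the single ligands overlapped throughout. None of the 63 conditions was called for Csf2ra by edgeR, and 1 was with DESeq2. In 46 the unadjusted p was under 0.05, a count that includes Ctrl replicate 3 and was not repeated without it. At the adjusted p alone, where 11.8% of all comparisons were lower, 37 of 63 conditions were lower and 0 higher. All share the 3 Ctrl libraries, and without Ctrl replicate 3 there were 2 of 63 (7.9% of all comparisons), against 40 and 33 without replicate 1 or 2 of Ctrl. LPS (log2 fold change -0.50, edgeR adjusted p = 0.00632) and cGAMP (-0.41, adjusted p = 0.0425) were among them. Without Ctrl replicate 3 the adjusted p was 0.583 for LPS and 0.866 for cGAMP, and both were also lost with no filter and without other single libraries: LPS replicate 1 or 2 (0.106 and 0.0568), Ctrl replicate 2 for cGAMP (0.0585) or any cGAMP library (0.0557 to 0.277). The cGAMP result was lost without the 6 libraries that stood apart (0.161). The averages over backgrounds do not rest on Ctrl alone, and they were small: -0.28 with LPS (19 of 22 lower), -0.19 with cGAMP (20 of 22), -0.12 with CpGB (19 of 22) and -0.09 with HMW (16 of 22, adjusted p = 0.0404). These 4 passed edgeR's test below the size threshold. HMW did not without the 6 libraries that stood apart (adjusted p = 0.0857), with no filter, with thinning or without replicate 1 or 3 (0.114 to 1). CpGB did not with thinning (0.0576) or without replicate 3 (0.0997). PAM, Zymosan and SeV averaged 0.00, 0.00 and -0.05, of which SeV passed with RLE size factors (adjusted p = 0.0365), library size alone and DESeq2, and PAM with library size alone (-0.12, adjusted p = 0.000368). The lowest condition was again LPS+cGAMP+CpGB, with 499.7, 469.6 and 417.6 CPM and a log2 fold change of -0.94.

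Csf2rb, the signalling chain shared by the GM-CSF, interleukin 3 and interleukin 5 receptors, fell on average with cGAMP and rose, under the size threshold, with Zymosan. The Ctrl libraries held 776, 649 and 816 CPM and those with cGAMP alone 550, 520 and 552 CPM, all below Ctrl. The change with cGAMP was -0.47 (edgeR adjusted p = 0.0189), under the size threshold. It was lost with no filter (-0.27, adjusted p = 0.633), without the 6 libraries that stood apart (0.0864), and when any 1 library of Ctrl or cGAMP except Ctrl replicate 2 was left out (0.0742 to 0.267). Libraries with PAM alone held 833, 925 and 972 CPM, all above Ctrl, but the change of 0.28 did not pass (adjusted p = 0.198). One of the 63 conditions was called, lower: LPS+cGAMP+CpGB, with 324, 278 and 347 CPM and a log2 fold change of -1.24 (edgeR adjusted p = 7.92e-10). At the adjusted p alone 4 conditions were higher and 21 lower, where the shares over all comparisons were 16.5% and 11.8%. Without Ctrl replicate 3 there were 12 lower, and without Ctrl replicate 2 there were 2 higher. PAM+Zymosan was the highest, with 1326, 1208 and 1199 CPM, all above Ctrl (log2 fold change 0.72, edgeR adjusted p = 2.71e-05). Averaged over backgrounds, cGAMP lowered Csf2rb by -0.51 on the log2 scale (adjusted p = 5.15e-38, 21 of 22 lower), which was called, though close to the size threshold: it was -0.49 with no filter and -0.47 without replicate 3. Zymosan averaged 0.30 (21 of 22 higher), LPS -0.24 (17 of 22 lower), CpGB -0.17 (17 of 22 lower) and PAM 0.14 (15 of 22 higher), all past edgeR's test and under the size threshold. With scaling by library size alone PAM averaged 0.02 (adjusted p = 0.649), and with thinning 0.11 (0.0717). SeV averaged -0.07 (edgeR adjusted p = 0.0661), but passed with RLE size factors (0.00877), library size alone and DESeq2 (0.00814). Against Ctrl, LPS alone did not pass, but did with RLE size factors (-0.42, adjusted p = 0.0248), library size alone, DESeq2 and when fitted with Ctrl alone. SeV alone passed with library size alone (adjusted p = 0.037).

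Csf2rb2, the interleukin 3 receptor beta gene, had no called change. Its Ctrl libraries held 554, 561 and 422 CPM, and those with cGAMP alone 348, 351 and 399 CPM, below Ctrl (log2 fold change -0.46, edgeR adjusted p = 0.0813). It passed, below the size threshold, with RLE size factors (0.0209), library size alone, thinning, DESeq2 and with cGAMP and Ctrl fitted alone (adjusted p of 0.00395 to 0.0289). No condition was called by edgeR or by DESeq2, 5 higher and 12 lower had an unadjusted p under 0.05, and at the adjusted p alone 1 was higher and 8 lower, or 1.59% and 12.7% of 63, where 16.5% and 11.8% of all comparisons were. The lower count was 3 without Ctrl replicate 1, 1 without Ctrl replicate 2 and 9 without Ctrl replicate 3, and the higher count ran from 0 to 2. The higher one was PAM+Zymosan+cGAMP, with 628, 930 and 667 CPM. The lowest mean, 300.1 CPM, was in cGAMP+CpGB, with 246, 379 and 275 CPM. Zymosan averaged 0.33 over backgrounds (20 of 22 higher), cGAMP -0.28 (16 of 22 lower), LPS -0.17 (18 of 22 lower) and CpGB -0.12 (adjusted p = 0.00767). The CpGB average did not pass without the 6 libraries that stood apart (0.0591), with no filter (0.0755), without replicate 2 (0.129) or without replicate 1, where it was -0.05 (adjusted p = 0.426). Across the 64 group means Csf2rb and Csf2rb2 had a Pearson correlation of 0.84, over groups that share libraries and depth. The share of Csf2rb2 in the summed CPM of both genes was 40.7% ± 6.20 in Ctrl (SD, n = 3). Group means of this share ran from 35.4% in PAM+Zymosan+SeV to 51.2% in HMW+Zymosan+cGAMP, with a median of 42.8%. Reads from the shared windows could have been counted for either gene.

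Csf3r, the receptor for Csf3, was lower with cGAMP and was thinly counted, with 2077 UMIs over 188 libraries. The Ctrl libraries held 69.3, 49.9 and 76.8 CPM, from 5, 4 and 8 UMIs. With cGAMP alone they held 0, 29.2 and 24.6 CPM, all below Ctrl, and the log2 fold change of -1.68 was called (edgeR adjusted p = 0.0401). That call was lost with no filter on low counts (adjusted p = 0.163), without any one replicate number (0.0719 to 0.26) and without any 1 library of Ctrl or cGAMP except cGAMP replicate 2 (0.0582 to 0.2). Without the 6 libraries that stood apart its adjusted p was 0.056. Zymosan libraries, at 27.6, 32.0 and 28.0 CPM, were also below Ctrl, with a change of -1.16 that did not pass (adjusted p = 0.237). CpGB alone had the highest mean of the single ligands, 94.6 CPM, and neighbours in the order overlapped throughout. With Csf1r and LPS, this made 2 member calls among the single ligands, where 8.7% of comparisons of all genes were called higher and 4.95% lower.

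Of the 63 conditions, 3 were called lower for Csf3r and 0 higher, and all 3 held cGAMP; 24.9% of tested genes were lower in at least as many. Without Ctrl replicate 1 or 3 the count was 1. HMW+Zymosan+cGAMP held 0, 16.7 and 13.3 CPM, all below Ctrl (log2 fold change -2.51, edgeR adjusted p = 0.0029). Zymosan+cGAMP+CpGB held 8.69, 17.5 and 28.3 CPM (-1.77, adjusted p = 0.0303), a call that was lost with no filter (0.121) and without replicate 1, 2 or 3 (0.191, 0.109 and 0.075). The highest mean, 108 CPM, was in PAM+SeV, with 103, 116 and 105 CPM, above every Ctrl library. Averaged over backgrounds, cGAMP lowered Csf3r by -0.75 on the log2 scale (SE 0.10, edgeR adjusted p = 5.51e-11), with a lower mean in 20 of 22. CpGB averaged 0.45 and PAM 0.43, each higher in 18 of 22 and past edgeR's test but under the size threshold. CpGB was called without replicate 3 (0.58) and PAM without replicate 2 (0.51). Zymosan averaged -0.22 (adjusted p = 0.0672), and passed with RLE size factors (0.0423), library size alone (0.0216) and without the 6 libraries that stood apart (0.0491). Neutrophils are the best-known source of Csf3r, and 11 of 12 neutrophil markers had counts. Their sum was 950 ± 141 CPM in Ctrl and 925 ± 191 CPM with cGAMP (SD, n = 3), and 930 and 1005 CPM in the other 2 conditions called. It was 1535 CPM in PAM+SeV and ran from 728 to 1928 CPM over all groups. The list did not move as one: Lcn2 was lowest in Ctrl, at 52.5 CPM against a median of 376 CPM over groups, while Ltf (88.4 CPM) and Retnlg (45.1 CPM) were highest in Ctrl. Without Lcn2 the sum was 897 ± 128 CPM in Ctrl and 856 ± 183 CPM with cGAMP (SD, n = 3), 829 and 821 CPM in the other 2 conditions and 917 CPM in PAM+SeV. The part of neutrophils in the Csf3r result was not tested. Elane and Mpo, which mark early neutrophil precursors, had 11 and 15 UMIs in all libraries together. Of the granule genes on the same list, Ngp, Ltf and Camp had 4591, 1350 and 1272 UMIs.

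Whether ligands combined beyond their single effects was examined in 3 ways. To begin, 126 interactions (6 genes by 21 pairs) were tested as the pair against the sum of its single changes. The 1 that passed was Csf1r with PAM+CpGB, at 0.66 (SE 0.20, edgeR adjusted p = 0.0158), where 3.07% of tested genes had a positive and 6.82% a negative interaction; over all 21 pairs the shares were 1.08% and 3.5%. Its libraries, at 1107, 1222 and 1296 CPM, lay between PAM and CpGB, so the pair was less low than the sum of both changes. The call was lost without a filter and without any one replicate number, and 11 of the 126 had an unadjusted p under 0.05. Then, 0 of 126 pairs differed from both single ligands by the full rule, which 0.353% of pair tests of all genes met in the higher and 0.0504% in the lower direction, and 11 did at an unadjusted p.

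At the adjusted p alone, Csf1r was lower in 4 pairs than with either of their ligands, where 0.805% of pair tests of all genes were higher and 0.0999% lower. In PAM+cGAMP the libraries held 565, 677 and 567 CPM, below every library of PAM alone and of cGAMP alone. The changes were -0.87 against cGAMP and -1.15 against PAM (edgeR adjusted p = 9.39e-06), and with library size alone or thinning it met the full rule. The others were cGAMP+CpGB (-0.59 and -0.76, adjusted p = 0.00943), PAM+SeV (-0.54 and -0.59, adjusted p = 0.0136) and LPS+CpGB (-0.59 and -1.17, adjusted p = 0.0346). These 3 did not pass in some settings. LPS+CpGB was lost with no filter, with thinning and without any one replicate number (adjusted p of 0.0783 to 1), cGAMP+CpGB with no filter, with thinning and without replicate 2 or 3 (0.0652 and 0.399), and PAM+SeV without replicate 2 or 3 (0.5 and 0.156). The smaller of the 2 changes stayed negative there, at -0.43 to -0.77 for LPS+CpGB, -0.50 to -0.65 for cGAMP+CpGB and -0.42 and -0.59 for PAM+SeV. As the last comparison, 0 of 210 triplets differed from all 3 of their pairs by the full rule (0.0115% of triplet tests of all genes were higher and 0% lower), and 6 did at an unadjusted p. At the adjusted p alone there was 1, Csf1r in PAM+HMW+Zymosan, with 651, 767 and 706 CPM (edgeR adjusted p = 0.0379), where 0.0297% of triplet tests were higher and 0.00182% lower. Replicate 1 of this group stood apart from the others, and without the 6 such libraries the adjusted p was 1. It was also lost with no filter, with thinning and without any one replicate number (0.243 to 1).

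For each tested gene, the 3 genes with the most similar pattern were taken by the Pearson correlation of the 64 group means of log2 CPM, which share libraries and depth. Those of Csf1 were Irf8 (0.86), Snn (0.81) and Bfar (0.79). Those of Csf1r were Pitpna (0.90), Lair1 (0.89) and Sept9 (0.89). Csf2ra had lower values, led by Prkcb (0.73), Fermt3 (0.73) and Flna (0.72). The gene most like Csf2rb was Csf2rb2, then Fam20c (0.82) and Tuba1c (0.81), and Tuba1c (0.81) and Bhlhe41 (0.74) followed Csf2rb for Csf2rb2. Csf3r had Sla (0.75), Rac2 (0.74) and Saa3 (0.73).

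A list of 54 other genes of colony-stimulating factor signalling was read beside the members: receptor partners and other ligands, kinases and adapters, STATs, feedback regulators, transcription factors of the receptor genes, sheddases and target genes. Of these, 41 were tested, and none of the 5 receptor partners and other ligands (Il34, Il3ra, Il5ra, Flt3, Kit) was. LPS had the most calls, 12 higher and 3 lower, with a median log2 fold change of 0.42 against -0.06 over all tested genes. SeV had 11 higher and 1 lower, PAM 10 and 1, CpGB 8 and 1, cGAMP 7 and 2, Zymosan 3 and 1, and HMW 0 and 0. Of all tested genes, the shares called higher and lower were 14.6% and 9.6% for LPS, 10.5% and 5.13% for SeV, and 8.01% and 5.89% for PAM. They were 10.8% and 6.27% for CpGB, 11.7% and 5.91% for cGAMP, 4.43% and 1.82% for Zymosan, and 0.953% and 0.0212% for HMW. By the average over 22 backgrounds the split was more even: 10 higher and 7 lower with LPS, 6 and 5 with CpGB, 4 and 4 with cGAMP, 6 and 2 with PAM, 5 and 2 with Zymosan, 3 and 1 with SeV and 0 and 0 with HMW. Of all tested genes, the averages called higher and lower were 14.9% and 11% for LPS, 6.12% and 5.06% for CpGB, and 14.3% and 10.3% for cGAMP. They were 6.53% and 5.89% for PAM, 8.58% and 3.81% for Zymosan, 7.9% and 2.58% for SeV, and 0.297% and 0.0847% for HMW.

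The changes that follow met edgeR's adjusted p and the size threshold, and are log2 fold changes against Ctrl. Of the 8 feedback regulators tested, at most 2 were called higher with any ligand, Socs1 and Socs3, and with LPS Inpp5d, a phosphatase named after its value was seen, was called lower (-1.85), with a median of -0.09 over the 8. Socs3, which blocks the G-CSF receptor and other receptors of its kind, rose from 52.8 ± 35.2 CPM in Ctrl to 419 ± 41.8 CPM with PAM, 329 ± 41.9 CPM with LPS and 306 ± 50.4 CPM with CpGB (SD, n = 3), log2 fold changes of 2.93, 2.58 and 2.51. Its averages over backgrounds, 1.69, 1.59 and 1.48, were also called. Socs1, an inhibitor of JAK kinases, rose by 2.45 with PAM, 3.71 with LPS, 4.53 with SeV, 3.89 with cGAMP and 2.48 with CpGB. Averaged over backgrounds it was called with LPS (0.97) and SeV (1.07) but not with PAM (0.49), cGAMP (0.15) or CpGB (0.25). Jak2, the kinase bound to the beta chain, rose with 5 ligands, by 1.90 with PAM, 2.33 with LPS, 1.37 with SeV, 1.32 with cGAMP and 1.61 with CpGB. Its averages were 0.79, 0.97, 0.32, 0.37 and 0.51, those with SeV and cGAMP under the size threshold. Stat5a rose by 1.55 with PAM and 1.67 with LPS, with averages of 0.88 and 1.35.

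Among target genes, Ccnd2, a cyclin of cell cycle entry, rose by 4.38 with LPS, 3.46 with SeV, 2.77 with cGAMP and 3.51 with CpGB. Its averages over backgrounds, 1.97, 0.78, 0.56 and 0.85, were all called. With thinning the cGAMP change was 1.22 and was not called (adjusted p = 0.24). Adam17, a protease that cleaves Csf1r from the cell surface, rose by 1.25 with PAM, 1.08 with LPS and 1.11 with CpGB, but averaged 0.17, -0.04 and 0.25 over backgrounds, none of them called. Runx1, a factor that acts on the Csf1r gene, fell by 1.92 on the log2 scale with LPS, and Shc1, an adapter of the beta chain, by 3.07 with cGAMP. The averages were -0.28 for Runx1, which did not pass (adjusted p = 0.0624), and -0.52 for Shc1, which was called. Runx1 was lost without replicate 1 (adjusted p = 0.145) or Ctrl replicate 1 (0.0884), and Shc1 without replicate 3 (0.0608). With Zymosan, Ets2 (1.37, average 0.04) and Jak1 (1.23, average 0.44) were called against Ctrl but not on average. Ets2 was lost with RLE size factors (adjusted p = 0.0882), library size alone, no filter, thinning, DESeq2 (0.154) and without replicate 1 or 2, and Jak1 with thinning, DESeq2 (0.0951) and without any one replicate number (0.0505 to 0.221). Both were also lost without several single libraries of Ctrl or Zymosan: Ctrl replicate 1 or 2 and Zymosan replicate 2 or 3 for Ets2, and Ctrl replicate 2 or 3 and Zymosan replicate 1 or 2 for Jak1. Irf8, which is both on this list and the gene most like Csf1, was called with SeV (1.02, average 0.51), and Sfpi1, which encodes PU.1, with no single ligand.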

How the data were processed

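The deposited table holds raw UMI counts per gene and library, made by the authors. Reads were processed with BWA 0.7.15 and mm10, per the submitters' processing notes. Whether counting used strand is not given in the sources used here. Each column was matched to its sample by title, and no value column was left out. The 7 members, the signalling and marker lists and the rule for named genes (all members, the 3 most similar genes of each tested member, and the largest 2 rises and 2 falls of the signalling list per single ligand) were chosen with earlier results of these data known. Jak2, Stat5a, Adam17, Irf8 and Sfpi1 were named after their values were seen. One gene that the rule names is not reported here.

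Genes were filtered by filterByExpr, scaled by TMM and fitted with edgeR 4.0.16 (R 4.3.3) in 1 quasi-likelihood model with a coefficient for each of 64 groups and 128 residual degrees of freedom. Within each contrast the Benjamini-Hochberg adjustment covered all 4720 genes that were tested. Counts at an unadjusted p are given without the share over all tested genes, which was not computed. A pair or triplet was called beyond its parts when it differed from each in 1 direction, by at least 1 on the log2 scale, with the largest p adjusted. Libraries were compared within groups by a chi-square statistic over its degrees of freedom, on genes with at least 20 counts in a pair; those above 3 with both others stood apart. DESeq2 1.42.0 was an alternative. The fitting code was tested on simulated data. Precision is limited by depth, above all in Ctrl; floors cover counting error only.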

Additional observations from a re-analysis of the deposited data

How the results depend on the processing

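Against Ctrl, 2 single-ligand calls were made for the members. There was 1 with no filter on low counts, 1 with each ligand and Ctrl fitted alone, 1 without the 6 libraries that stood apart, and 1 to 2 without any one replicate. Leaving out a Ctrl library also let more genes past the filter, 4959 to 4998 in place of 4720. Thinning all libraries to equal totals left 4 members tested (not Csf1 or Csf3r). For these members 4 average effects were called, as many as without thinning, where the total of 7 also counts Csf1 and Csf3r. With thinning there was 1 pair beyond both of its ligands in place of 0, and 37 calls on the signalling list in place of 60. Scaling by library size alone gave 3 interactions in place of 1 and 1 pair in place of 0, and turned the average effect of PAM on Csf2ra from 0.00 to -0.12. The interaction count was 0 with no filter and 0 without any one replicate number. For Csf3, log2 CPM gave 4 ligands past the permutation test in place of 2, and with no filter edgeR called it higher in 3 conditions, all with PAM and Zymosan.

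Scaling moved the centre of all genes against Ctrl, by -0.16 with RLE size factors and -0.37 with library size alone. Members' calls over the 63 conditions were 19 higher and 43 lower, and became 14 and 55, 8 and 77, and, with DESeq2, 11 and 55. Lower calls with the first 2 of these settings, DESeq2 and thinning were 4, 12, 4 and 4 for Csf2rb (1 as reported) and 1, 6, 1 and 2 for Csf2ra (0). With library size alone there were 3 for Csf2rb2 (0) and 7 for Csf3r (3), and 1 for Csf3r with no filter or without any one replicate number. Relative to the moved centre, no average effect shifted by more than 0.00267 with RLE size factors or library size alone. This follows from the arithmetic, since a change of scaling moves nearly all genes of a contrast by the same amount. It does not show which centre is right.

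Replicate numbers are shared by all groups, and same-numbered libraries showed little common deviation (median correlations of 0.005 to 0.011). Such values cannot show that the numbers mark no batch. Replicate 1 was the shallowest in many groups: Ctrl replicates 1 and 3 had 61823 and 89530 UMIs, and LPS replicates 1 and 3 had 133379 and 229979. It was not in all, as in LPS+HMW+SeV (183311 and 123537 UMIs). Most of the 6 libraries that stood apart were replicate 1. With the replicate block the counts were 2, 62, 7 and 1 for single ligands, all conditions, average effects and interactions, as without it; PAM on Csf1r (adjusted p = 0.0352) and on Csf2rb2 (average 0.08, adjusted p = 0.0427) also passed. Without any one replicate number there were 7 to 9 average effects called. Without the 6 libraries that stood apart there were 60 calls over the 63 conditions and 7 average effects.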
